A study of Arabidopsis thaliana with 6 samples.

Results

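UGT and BGLU genes encode enzymes of opposite action on small molecules. UDP-glycosyltransferases (UGTs) join a sugar to hormones, phenolics and foreign compounds, which usually makes them inactive, more soluble and fit for storage in the vacuole. Beta-glucosidases of the BGLU family remove glucose from such conjugates. They can release active hormones, lignin precursors or, as with the myrosinases and PYK10, toxic breakdown products of glucosinolates from stores that are kept apart until a cell is damaged. UGTs are grouped by sequence into numbered families, so that UGT73B4 belongs to family UGT73.

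Members were taken by name: genes whose symbol or RefSeq synonym reads UGT plus number, letter and number, or BGLU plus number. This gave 73 of the 13355 genes that had a probe set naming 1 gene, of which 51 were UGT and 22 BGLU genes. RefSeq (TAIR10.1) holds 64 UGT and 47 BGLU genes by the same rule, so 13 UGT and 25 BGLU genes were not analysed here. Of these, 6 are named by 4 probe sets that each name several genes and were left out. Each of the 73 had 1 such probe set, and 0 of these carried the suffix of a set shared between transcripts. For 6 members the RefSeq symbol is another name: GT72B1 is UGT72B1, SGT is UGT80A2, UF3GT is UGT79B1, AT5G54010 is UGT79B6, ATA27 is BGLU20 and PYK10 is BGLU23.

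Transcript levels of these genes were compared in whole, 10-day-old *Arabidopsis thaliana* seedlings that had been treated for 1 h with 20 nM purified protease IV, a protease secreted by the bacterium *Pseudomonas aeruginosa* PA14, and in mock control seedlings of the same age. Both groups were grown in liquid MS medium in multi-well plates and received fresh medium on day 8. Neither the accession nor any mutation is named in the labels, and the controls are called nontreated in the titles and mock elsewhere. Each group held 3 biological replicates with 1 Affymetrix array each. The labels do not say how plates were shared out, and p-values therefore cover only the variation among these 6 samples, some of which may be technical.

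Array medians were 6.07 to 6.13 (log2), and no arrays were identical. Correlations across genes, which are not independent replicates, were 0.996 to 0.998 within a group and 0.953 to 0.963 between groups. Among all 602 genes that rose at least 2-fold, protease IV replicate 2 had the lowest of the 3 treated values in 445, or 73.9%. The actin control gave a 3-prime minus 5-prime difference of 1.73, 1.58 and 2.12 in the protease IV samples, against 1.58, 1.58 and 1.57 in the mock samples (exact permutation p = 0.1, two-sided, the smallest that 20 relabellings allow). The 4 measured leaf and photosynthesis markers of 15 listed were all lower after treatment, with a summed level of 13.98 to 14.15 against 14.53 to 14.58 in mock (log2). For these and the marker counts that follow, 22.8% of all genes passed as lower. With cyclic loess 11.3% of all genes passed as lower and 15.4% as higher. The 4 measured root markers of 13, one of which is PYK10, summed to 12.48 to 12.50 against 12.61 to 12.69, and 1, EXPA18, passed as lower. PYK10, itself a member, made up most of this sum, at 12.44 to 12.47 against 12.57 to 12.66. The other root markers AT5G66390, EXPA7 and EXPA18 differed by 0.12, 0.10 and -0.34. With cyclic loess 3 leaf markers were lower, and 1 root marker passed as higher and 0 as lower. The 3 measured guard cell lineage markers of 9 were lower, at 7.12 to 7.39 against 7.72 to 7.84; with cyclic loess 2 were, without MUTE (adjusted p = 0.082), which passed in limma in 1 of the 6 fits that leave out an array. The 4 measured pollen markers of 9 had both group means below 3.97, which was the smallest lower quartile of any array, and 0 passed in limma, with 0 at an unadjusted p under 0.05. No seed marker was analysed here. Whether these shifts take part in the results on UGT and BGLU genes was not tested.

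The comparison asks which of these conjugating and deconjugating enzymes change at the transcript level within 1 h of contact with the protease. UGT genes moved in both directions. The redox- and pathogen-linked genes UGT73B5 and UGT73B4 rose 14.8-fold and 4.94-fold, and the abscisate glucosyltransferase gene UGT71B6 rose 7.89-fold, whereas 4 of 5 genes of family UGT72, which glycosylates lignin precursors and foreign phenols, fell, by up to 2.93-fold. Over all genes 22.8% passed as lower. Of 22 measured BGLU genes 16 did not pass the threshold, as did 8791 of all 13355 genes. BGLU27 rose 8.15-fold and the monolignol glucosidase gene BGLU45 rose 2.65-fold.

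Values are log2 expression, and a gene that rose or fell by a number did so on the log2 scale, protease IV minus mock. A gene was called when its limma p-value, adjusted by Benjamini-Hochberg over all 13355 genes, was under 0.05. By this rule 10 UGT genes rose, 15 fell and 26 did not pass, while 3 BGLU genes rose, 3 fell and 16 did not pass. The calls made up 49% of UGT and 27.3% of BGLU genes, against 34.2% of all genes tested. Rises were 19.6% of UGT and 13.6% of BGLU genes against 11.4% of all genes, and falls were 29.4% and 13.6% against 22.8%. The median difference, protease IV minus mock, was -0.002 for UGT genes, -0.04 for BGLU genes and -0.06 for all genes on the log2 scale. The difference in share between UGT and BGLU genes was not tested. Both group means were under that 3.97 limit in 10 of 22 BGLU genes (45.5%) and in 7 of 51 UGT genes (13.7%), and 0 of these 17 dim genes passed in limma (0 at an unadjusted p under 0.05). Among the others, 25 of 44 UGT genes (56.8%) and 6 of 12 BGLU genes (50%) passed, against 46.0% of all genes that were not dim in both groups. A gene dim in mock but not after treatment counts among these others, so the shares depend in part on the response itself. BGLU27, with a mean of 6.66 after treatment and 3.63 in mock, is 1 of the 6 BGLU genes that passed.

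The split between rises and falls depended on how arrays were scaled to each other. With cyclic loess, 15 UGT genes rose and 12 fell, so that 44.4% of their calls were lower, where the deposited values gave 60%; 3 BGLU genes rose and 1 fell. Over all genes the lower share of calls was 42.4% with cyclic loess and 66.6% with the deposited values, and the background rates were 15.4% higher and 11.3% lower. Changes of at least 2-fold were seen in 5 UGT and 2 BGLU genes that rose (4.51% of all genes did so) and in 2 UGT genes and 0 BGLU genes that fell (1.17% of all genes). The 3 treated values did not overlap the 3 mock values in 14 UGT genes that were higher and 18 that were lower, and in 3 BGLU genes that were higher and 7 that were lower, where over all genes 14.7% were higher and 31.0% lower, or 45.6% in either direction.

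**Figure D1:**
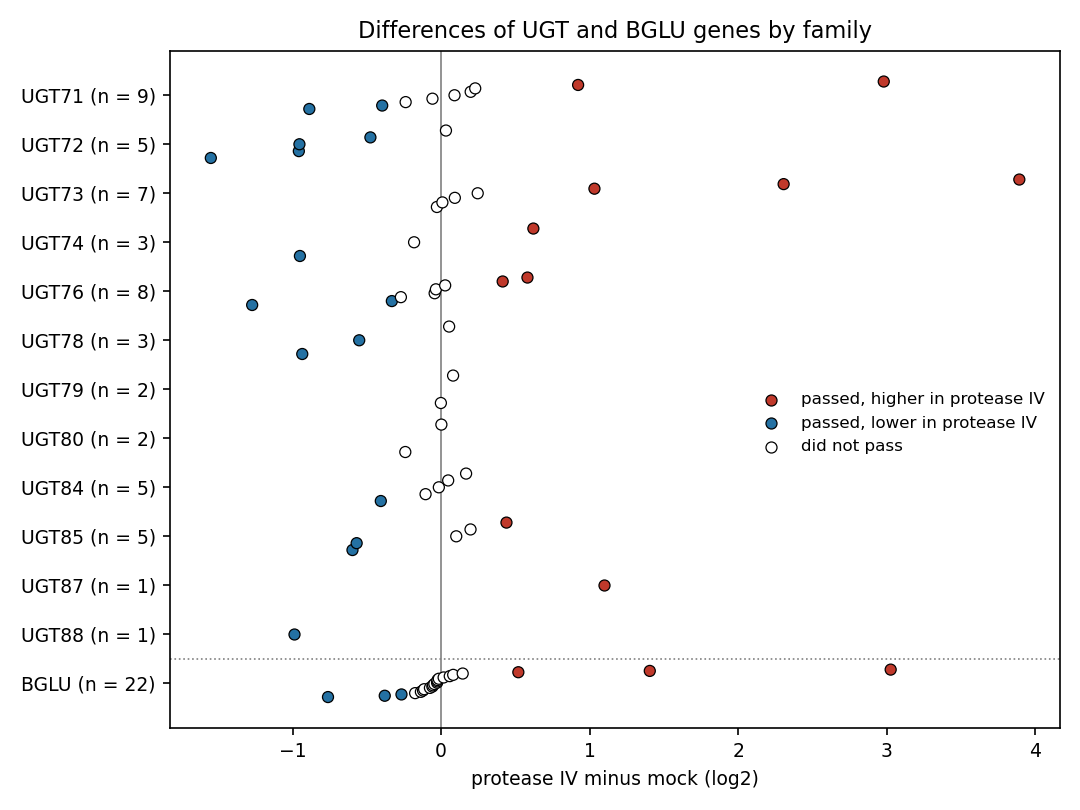
Difference of each UGT and BGLU gene, protease IV minus mock on the log2 scale, by family (n is the number of genes; points are spread vertically for legibility). Filled points passed an adjusted p under 0.05 in limma. UGT73 holds 3 rises and 0 falls, UGT72 holds 4 falls and 0 rises, and 16 of 22 BGLU genes lie close to 0 without passing. Over all genes 11.4% passed as higher and 22.8% as lower.

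Family UGT73 includes enzymes that act on stress metabolites and foreign compounds, and UGT73B3 and UGT73B5 are known for a part in the redox response to *Pseudomonas* infection. UGT73B3 and UGT73B2 are named by the same probe set and were left out. Of the 7 measured members of family UGT73, 3 rose and 0 fell (4 higher and 0 lower at an unadjusted p under 0.05 in limma), against 11.4% higher and 22.8% lower over all genes, and all 3 rises were at least 2-fold. UGT73B5 (AT2G15480) measured 9.05, 8.23 and 8.89 in protease IV-treated seedlings, against 4.84, 4.92 and 4.74 in mock seedlings. The lowest treated value was above the highest mock value by more than 3 log2 units, and the difference was 3.89 (SE 0.17; limma, adjusted p = 3.55e-08). Without protease IV replicate 2, which was the lowest treated array, it was 4.14. UGT73B4 (AT2G15490), which is next to UGT73B5 in the genome and is known to glycosylate the explosive TNT, measured 6.62, 6.33 and 6.25 in protease IV-treated seedlings, against 4.2, 3.98 and 4.10 in mock seedlings. Its groups were also fully apart, with a difference of 2.31 (SE 0.11; limma, adjusted p = 4.25e-08).

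UGT73D1 (AT3G53150) measured 5.41, 4.72 and 5.15 in protease IV-treated seedlings, against 4.03, 3.99 and 4.16 in mock seedlings, a 2.04-fold rise (limma, adjusted p = 0.000311). Its treated samples differed more among themselves than its mock samples, and replicate 2 was again the lowest; without it the difference was 1.22. UGT73B1 differed by 0.25 and did not pass (limma, adjusted p = 0.0847), although it passed with cyclic loess at 0.41 (adjusted p = 0.0112). UGT73C7, which is known to steer phenylpropanoids in pathogen responses, differed by 0.09 (95% interval -0.11 to 0.30). UGT73C1 and UGT73C2 had both group means below 3.97 and differed by -0.03 and 0.01.

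Of 9 measured members of family UGT71, 2 rose and 2 fell, each 22.2%, against 11.4% higher and 22.8% lower over all genes, so the share of falls was near that of all genes. UGT71B6 (AT3G21780), which inactivates abscisate by glucosylation, measured 7.54, 6.93 and 7.43 in protease IV-treated seedlings, against 4.31, 4.39 and 4.26 in mock seedlings. The groups were fully apart and the difference was 2.98 (SE 0.14; limma, adjusted p = 4.52e-08); without protease IV replicate 2, its lowest treated array, it was 3.16. UGT71C5 (AT1G07240), another glucosyltransferase that acts on abscisate, measured 8.21, 8.20 and 8.24 in protease IV-treated seedlings, against 7.13, 7.37 and 7.38 in mock seedlings. It rose by 0.92, or 1.89-fold (limma, adjusted p = 1.19e-05), with treated values within 0.1 of each other.

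UGT71B1 (AT3G21750) measured 6.31, 6.37 and 6.46 in protease IV-treated seedlings, against 7.30, 7.34 and 7.17 in mock seedlings, a 1.85-fold fall (limma, adjusted p = 9.54e-06). UGT71C4 fell by 0.40 (limma, adjusted p = 0.0067), a call that was lost with cyclic loess (adjusted p = 0.143). UGT71B5, UGT71B8 and UGT71C1 lay close to the threshold, with differences of 0.23, 0.20 and -0.24 and adjusted p in limma of 0.052, 0.0575 and 0.0566. With cyclic loess 5 members of the family rose and 1 fell, against 15.4% higher and 11.3% lower over all genes. UGT71C2 and UGT71C3 differed by 0.09 and -0.06.

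Of the 5 measured genes of family UGT72, 4 fell and 0 rose, with the deposited values and with cyclic loess, against 22.8% and 11.3% lower over all genes; at an unadjusted p under 0.05 in limma the counts were also 4 and 0. UGT72B3 (AT1G01420) measured 4.3, 4.36 and 4.23 in protease IV-treated seedlings, against 5.86, 5.83 and 5.86 in mock seedlings. This was the largest fall among the members, 2.93-fold, with both groups tight and apart (SE 0.072; limma, adjusted p = 4.54e-08). UGT72B1 (AT4G01070), which glycosylates chlorinated phenols and lignin precursors, measured 7.10, 6.74 and 7.10 in protease IV-treated seedlings, against 7.96, 7.92 and 7.93 in mock seedlings. It fell by 0.96 (limma, adjusted p = 3.79e-05).

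The UGT72E genes encode glucosyltransferases of the monolignols coniferyl and sinapyl alcohol and of related aldehydes. UGT72E1 (AT3G50740) measured 7.64, 7.48 and 7.67 in protease IV-treated seedlings, against 8.51, 8.46 and 8.68 in mock seedlings, and UGT72E2 measured 6.84, 6.90 and 6.76 in protease IV-treated seedlings, against 7.11, 7.40 and 7.42 in mock seedlings. They fell by 0.95 and 0.48 (limma, adjusted p = 1.13e-05 and 0.00303), and neither overlapped between groups. UGT72E3 differed by 0.03, with a 95% interval of -0.15 to 0.22 that holds none of the falls of its relatives.

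In the other direction on the same substrates, the beta-glucosidases BGLU45 and BGLU46 release monolignols from their glucosides. BGLU45 (AT1G61810) measured 6.50, 6.08 and 6.07 in protease IV-treated seedlings, against 4.80, 4.96 and 4.69 in mock seedlings. BGLU46 (AT1G61820), the next gene along the chromosome, measured 5.91, 5.68 and 5.68 in protease IV-treated seedlings, against 5.26, 5.29 and 5.16 in mock seedlings. Both rose, BGLU45 by 1.40 (SE 0.12; limma, adjusted p = 8.32e-06) and BGLU46 by 0.52 (SE 0.085; limma, adjusted p = 0.000812), and in both the lowest treated value was above the highest mock value. BGLU47 of the same subgroup was dim in both groups and differed by 0.08. Of the 10 measured genes listed for phenylpropanoid and monolignol conjugates, the 2 that rose were thus glucosidases and the 4 that fell were glycosyltransferases, against 11.4% higher and 22.8% lower over all genes.

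The remaining glycosyltransferases on that list belong to family UGT84, which makes glucose esters of hydroxycinnamates. UGT84A3 fell by 0.41 (limma, adjusted p = 0.0203), but the call was lost with cyclic loess (adjusted p = 0.15) and without any of protease IV replicate 2, mock replicate 1 and mock replicate 2, where the adjusted p in limma was 0.0628, 0.0671 and 0.0806. UGT84A1 differed by -0.10 and UGT84A4 by 0.17, and UGT84A4 passed as higher with cyclic loess (adjusted p = 0.0141).

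Other phenylpropanoid genes were measured in 4 of 32 listed, of which 2 rose and 1 fell, against 11.4% higher and 22.8% lower over all genes. CCR2, a cinnamoyl-CoA reductase, rose by 4.06 (limma, adjusted p = 7.65e-11), and AT3G13610, the feruloyl-CoA hydroxylase F6'H1 that makes the precursor of the coumarin scopoletin, rose by 0.76 (limma, adjusted p = 5.81e-05). HCT, a hydroxycinnamoyltransferase of lignin synthesis, fell by 0.67 (limma, adjusted p = 3.95e-05), and 4CL8, dim in both groups, differed by 0.12. BGLU42, which is known to release scopoletin from its glucoside in roots, differed by -0.03 (95% interval -0.24 to 0.18).

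Flavonol conjugation genes were lower or did not pass, with 5 of 10 genes listed for flavonoid and anthocyanin conjugates measured. UGT78D1 (AT1G30530), a flavonol rhamnosyltransferase, measured 7.39, 7.48 and 7.71 in protease IV-treated seedlings, against 8.40, 8.58 and 8.39 in mock seedlings. UGT78D2 (AT5G17050), which glucosylates flavonols and anthocyanidins, measured 8.56, 8.55 and 8.71 in protease IV-treated seedlings, against 9.14, 9.24 and 9.09 in mock seedlings. Both fell without overlap, UGT78D1 by 0.93 and UGT78D2 by 0.55 (limma, adjusted p = 3.49e-05 and 0.000354), also with cyclic loess. UGT78D3, an arabinosyltransferase of flavonols, was dim in both groups at a difference of 0.05. The anthocyanin xylosyltransferase gene UGT79B1 differed by -0.002 with a wide 95% interval of -0.31 to 0.31, UGT79B6 by 0.08, and the flavonol glucosidase gene BGLU15 by -0.02. Among other flavonoid genes 2 of 28 listed were measured. BAN, an anthocyanidin reductase, rose by 0.30 (limma, adjusted p = 0.0107), from a mock mean of 3.88 that was below 3.97. DFR, dihydroflavonol reductase, was dim in both groups and differed by -0.17. Without mock replicate 1 BAN did not pass (adjusted p = 0.0586 in limma), which left 0 rises on that list.

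**Figure D2:**
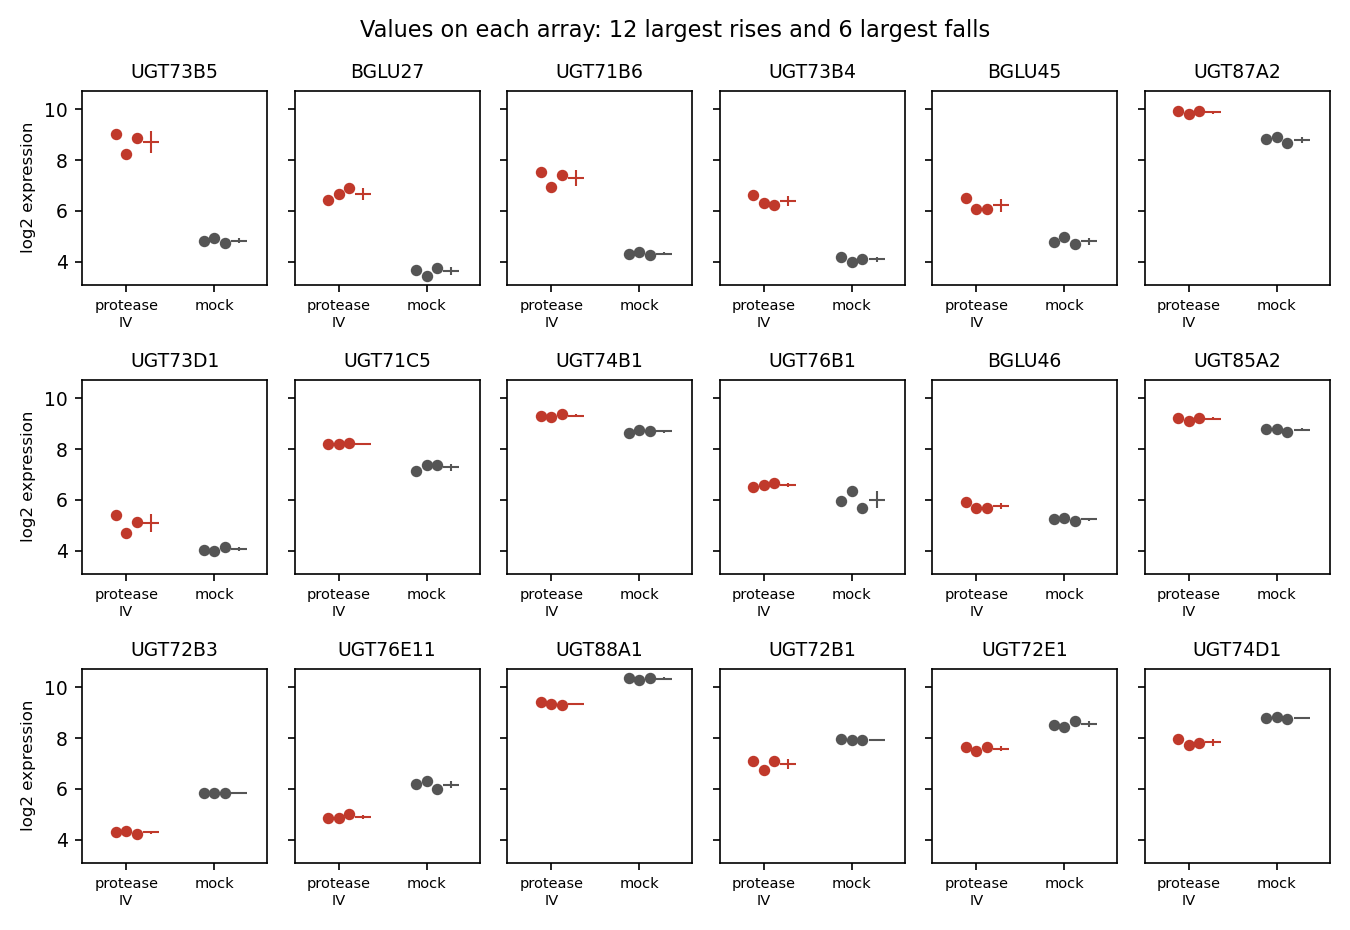
Log2 expression on each array for the 12 largest rises and the 6 largest falls among members past the threshold; points are the 3 arrays of a group, and the bar beside them is the mean with its SD. In all 18 genes the protease IV and mock points do not overlap, where over all genes 45.6% did not. These 18 were picked by passing and by the size of their difference, which favours such separation.

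Among hormone-conjugating genes, the abscisate genes UGT71B6 and UGT71C5 described above rose, whereas the auxin gene UGT74D1 fell. Of 7 genes listed for abscisate 4 were measured. UGT71B8, also on that list, differed by 0.20 and did not pass (limma, adjusted p = 0.0575), but passed as higher with cyclic loess (adjusted p = 0.0339). UGT74D1 (AT2G31750) measured 7.97, 7.72 and 7.81 in protease IV-treated seedlings, against 8.78, 8.82 and 8.75 in mock seedlings, and fell by 0.95 (SE 0.082; limma, adjusted p = 7.66e-06). UGT84B1, which glucosylates indole-3-acetic acid, differed by 0.05 (95% interval -0.12 to 0.22). Of 3 genes listed for auxin 2 were measured. BGLU33, which releases abscisate from its glucose ester in the vacuole, differed by 0.06 (95% interval -0.20 to 0.31).

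UGT76C1 and UGT76C2 are neighbouring genes for N-glucosylation of cytokinins, the 2 measured of 3 genes listed for these hormones. UGT76C2 fell by 0.33 (limma, adjusted p = 0.0331), a call that was lost with cyclic loess (adjusted p = 0.331) and without any of protease IV replicates 1 and 3 and mock replicates 2 and 3, where the adjusted p in limma was 0.106, 0.0674, 0.0979 and 0.0940. UGT76C1 differed by -0.27 and did not pass (limma, adjusted p = 0.113), but passed without protease IV replicate 2 (adjusted p = 0.0403).

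Amino acid conjugation is another route by which plants inactivate auxin, and it was measured through 5 GH3 genes, of 50 genes listed for hormone conjugation and turnover. GH3.3, WES1 and GH3.9 rose by 1.12, 0.64 and 0.49, GH3.17 fell by 0.45, and GH3.1, dim in both groups, differed by -0.14 (limma, adjusted p = 0.33). The rise of GH3.3 was 2.17-fold (SE 0.15 on the log2 scale; limma, adjusted p = 0.000192).

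Conjugation of salicylate and related immune signals was represented by 3 measured genes of 5 listed. UGT76B1 (AT3G11340), which glucosylates salicylate, isoleucic acid and the systemic immune signal N-hydroxypipecolate, measured 6.53, 6.58 and 6.67 in protease IV-treated seedlings, against 5.97, 6.36 and 5.70 in mock seedlings. Its mock values were widely spread, with replicate 2 close to the treated range, but the groups did not overlap and the gene rose by 0.58 (SE 0.14; limma, adjusted p = 0.00899). Without mock replicate 3, its lowest mock value, the difference was 0.43, and without mock replicate 2 it was 0.76; both passed. UGT74F1, a salicylate glucosyltransferase, differed by -0.18 (limma, adjusted p = 0.172), and UGT76D1, which acts on dihydroxybenzoates, by -0.04 (95% interval -0.25 to 0.17).

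Of 27 other genes listed for salicylate and pipecolate signalling 2 were measured. SAG101, a partner of the immune regulator EDS1, rose by 2.33 (limma, adjusted p = 4.2e-09), and BSMT1, a methyltransferase of salicylate, was dim in both groups.

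Family UGT76 also holds the UGT76E genes, where UGT76E11 (AT3G46670) measured 4.86, 4.84 and 5.0 in protease IV-treated seedlings, against 6.22, 6.30 and 6.01 in mock seedlings. It fell 2.41-fold with no overlap (limma, adjusted p = 1.85e-06), also with cyclic loess. UGT76E2 measured 5.62, 5.71 and 5.79 in protease IV-treated seedlings, against 5.17, 5.24 and 5.47 in mock seedlings and rose by 0.41 (limma, adjusted p = 0.00596). Its neighbour UGT76E1, which is known to glucosylate hydroxyjasmonate, and UGT76E12 were dim in both groups.

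Glucosinolate synthesis was represented by UGT74B1 (AT1G24100), which adds the glucose to the glucosinolate core. It measured 9.32, 9.27 and 9.38 in protease IV-treated seedlings, against 8.63, 8.74 and 8.73 in mock seedlings. All treated values exceeded all mock values, and the gene rose 1.54-fold (SE 0.074 on the log2 scale; limma, adjusted p = 8.32e-05).

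Of 8 genes listed for glucosinolate breakdown only 2 were measured, PYK10 and BGLU36, and neither passed. PYK10 (BGLU23), the abundant beta-glucosidase of the ER bodies of roots and seedlings, measured 12.44, 12.47 and 12.46 in protease IV-treated seedlings, against 12.57, 12.65 and 12.66 in mock seedlings. The treated values were all lower than the mock values, with a difference of -0.17 (95% interval -0.33 to -0.02; limma, adjusted p = 0.0812). It passed as lower with a variance trend (adjusted p = 0.0141) or among genes with a mean of at least 5 (adjusted p = 0.0392), and was -0.05 with cyclic loess. The other measured root markers AT5G66390, EXPA7 and EXPA18 differed by 0.12, 0.10 and -0.34; their part in the value of PYK10 was not tested. BGLU36, related to the myrosinases, was dim in both groups. The other ER body relatives BGLU19, BGLU20, BGLU24 and BGLU25 differed by -0.11, -0.14, -0.05 and -0.12, and none passed in limma; of the 5 measured genes of that subgroup 1, PYK10, had an unadjusted p under 0.05.

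Partners of ER bodies and of glucosinolate handling were lower where they passed, with 1 exception. NAI1, the transcription factor that controls ER bodies, fell by 0.41 (limma, adjusted p = 0.00243), NAI2, which is needed to form them, fell by 0.32 (limma, adjusted p = 0.00695) and the jacalin-related lectin JAL33 fell by 0.29, or 3 of 5 measured genes of 21 listed, against 22.8% lower over all genes. In bulk seedlings, fewer cells of a type and less RNA per cell cannot be told apart. With cyclic loess 1 of the 3, NAI1, passed, against 11.3% lower over all genes, and the call of JAL33 was lost in 4 of the 6 fits that leave out an array (adjusted p between 0.0895 and 0.148 in limma). Of 4 measured glucosinolate genes of 50 listed, the glucosinolate transporter gene GTR1 rose by 0.36, GTR2 fell by 0.42 and BCAT4, of methionine chain elongation, fell by 0.47 (limma, adjusted p = 0.00998, 0.0347 and 0.000698), against 11.4% higher and 22.8% lower over all genes. The call of GTR2 was lost with cyclic loess and without any of 5 single arrays (adjusted p between 0.0733 and 0.0910 in limma).

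Several members of unclear or other function also changed. BGLU27 (AT3G60120) measured 6.41, 6.66 and 6.89 in protease IV-treated seedlings, against 3.68, 3.44 and 3.77 in mock seedlings. It gave the largest rise of a BGLU gene, 3.03 (SE 0.13; limma, adjusted p = 1.87e-08), with a mock mean below 3.97; because dim signals are compressed, the fold refers to measured signal only. UGT87A2 (AT2G30140), which is known for its effect on flowering time, measured 9.92, 9.83 and 9.93 in protease IV-treated seedlings, against 8.83, 8.91 and 8.66 in mock seedlings. It rose 2.13-fold with both groups tight (limma, adjusted p = 3.09e-06).

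UGT88A1 (AT3G16520) measured 9.41, 9.34 and 9.31 in protease IV-treated seedlings, against 10.36, 10.28 and 10.39 in mock seedlings. It fell 1.99-fold with no overlap (limma, adjusted p = 2e-06). BGLU40 (AT1G26560) measured 6.68, 7.12 and 6.96 in protease IV-treated seedlings, against 7.77, 7.67 and 7.60 in mock seedlings, the largest fall of a measured BGLU gene at -0.76 (limma, adjusted p = 0.000323). BGLU16 fell by 0.38 and BGLU44, a glucosidase active on mannosides, fell by 0.27 (limma, adjusted p = 0.00206 and 0.0162), and both calls were lost with cyclic loess (adjusted p = 0.0693 and 0.383). The call of BGLU44 was also lost without mock replicate 1 or mock replicate 2 (adjusted p = 0.0541 and 0.0705 in limma).

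Family UGT85 had 1 rise and 2 falls among 5 members, against 11.4% higher and 22.8% lower over all genes. UGT85A2 (AT1G22360) measured 9.25, 9.13 and 9.24 in protease IV-treated seedlings, against 8.81, 8.80 and 8.69 in mock seedlings and rose by 0.44 (limma, adjusted p = 0.00103). UGT85A5 measured 4.81, 4.88 and 4.78 in protease IV-treated seedlings, against 5.62, 5.42 and 5.22 in mock seedlings and fell by 0.60 (limma, adjusted p = 0.000945). UGT85A4 fell by 0.57 (limma, adjusted p = 0.00407), and UGT85A3 and UGT85A7 differed by 0.20 and 0.10 without passing. The sterol glucosyltransferase genes UGT80A2 and UGT80B1 differed by 0.002 and -0.24; UGT80B1 had an adjusted p of 0.053 in limma, and it passed as lower, together with UGT71C1, when arrays were centred on their medians or quantile-normalized, and after either filter on dim genes.

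Over all 42 members that did not pass, the largest absolute difference was 0.27 and the 95% intervals lay between -0.54 and 0.47. The 10 dim BGLU genes among them were BGLU20, BGLU24, BGLU28, BGLU29, BGLU31, BGLU32, BGLU36, BGLU41, BGLU43 and BGLU47, with differences from -0.14 to 0.15. The 7 dim UGT genes were UGT73C1, UGT73C2, UGT76E1, UGT76E12, UGT78D3, UGT79B6 and UGT84B2, with differences from -0.04 to 0.08. At such signals a difference between samples may not be measurable on these arrays.

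Many of these genes lie in tandem. In RefSeq, 20 pairs of measured members, made of 35 genes, are direct neighbours among protein-coding genes, and this grouping was made after the values were seen. In 2 pairs, UGT73B5 with UGT73B4 and BGLU45 with BGLU46, both genes rose. In 3 pairs both passed in opposite directions. BGLU27 rose by 3.03 where its neighbour BGLU16 fell by 0.38, UGT71C5 rose by 0.92 where UGT71C4 fell by 0.40, and UGT85A2 rose by 0.44 where UGT85A5 fell by 0.60. With cyclic loess BGLU16 and UGT71C4 no longer passed, so of the 3 only the UGT85 pair then held opposite calls. In 9 pairs 1 gene passed and in 6 neither did. UGT73D1 rose beside UGT73C7 at 0.09. Over all genes 11.4% passed as higher and 22.8% as lower. Neighbours outside the members were not counted, so whether these pairs differ from other adjacent genes was not tested.

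**Figure D3:**
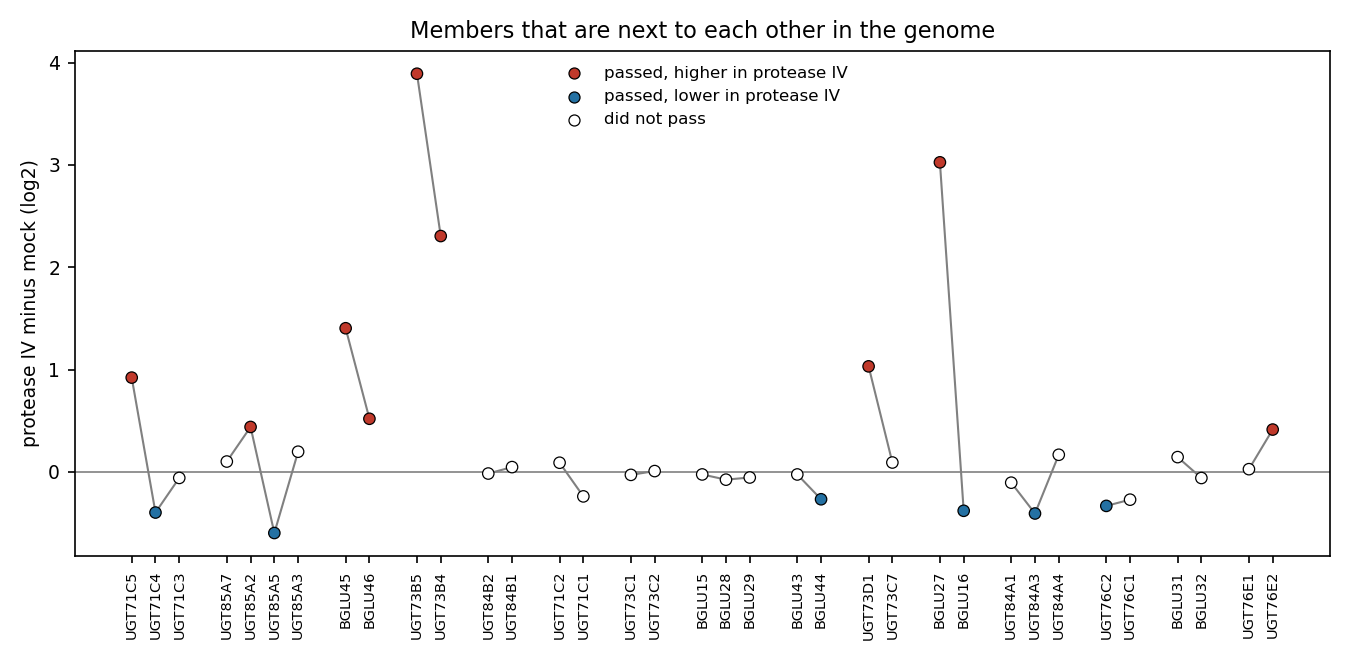
Difference of each member, protease IV minus mock on the log2 scale, for members that are direct neighbours in RefSeq; lines join neighbours, and filled points passed in limma. The UGT73B and BGLU45 pairs rise together, whereas BGLU27, UGT71C5 and UGT85A2 lie above 0 beside a neighbour below 0.

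Further families handle foreign compounds before or beside glycosylation. Of 14 measured glutathione S-transferases, of 49 listed, 0 rose and 6 fell, against 11.4% higher and 22.8% lower over all genes. The same 6 were those with an unadjusted p under 0.05 in limma. With cyclic loess 0 rose and 4 fell, against 15.4% higher and 11.3% lower over all genes. GSTU16 fell by 0.80, GSTU18 fell by 0.68, GSTU27 fell by 0.64 and GSTU20 fell by 0.53 (limma, adjusted p at most 0.000203). GSTU23 and GSTL3, which fell by 0.39 and fell by 0.22, were the 2 lost with cyclic loess, and without at least 4 of the single arrays. Of 22 measured cytochromes P450, all of the CYP71B subfamily but CYP51G2, CYP78A9, CYP79A2 and CYP84A4, 7 rose and 6 fell, against 11.4% higher and 22.8% lower over all genes, so the share of falls was near that of all genes. The counts of P450 genes were the same with cyclic loess, against 15.4% higher and 11.3% lower over all genes. The extremes were CYP71B5 and CYP71B23, highest at 1.58 and 1.45, and CYP71B36 and CYP71B26, lowest at -1.65 and -1.45. The 1 measured efflux carrier of the DTX class, AT5G52050 (DTX50, an abscisate exporter), rose by 0.94 (limma, adjusted p = 6.37e-05). BGAL16, a beta-galactosidase, fell by 0.36 (limma, adjusted p = 0.00913). No ABC transporter of the list was analysed here.

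**Figure D4:**
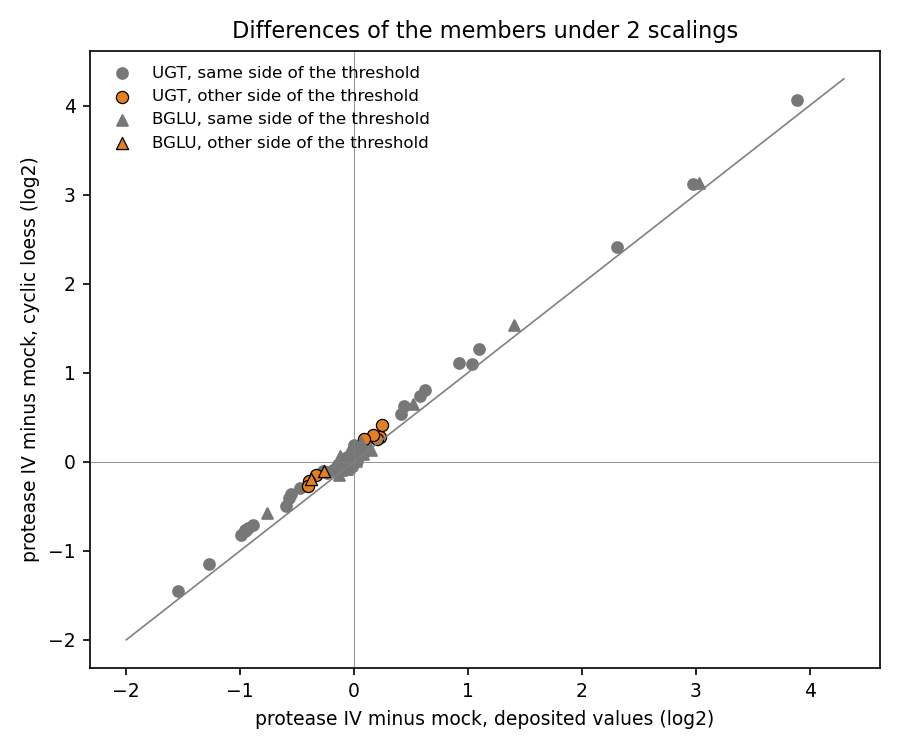
Difference of each of the 73 members, protease IV minus mock on the log2 scale, from the deposited values (horizontal) and after cyclic loess between arrays (vertical); the line marks equal values. The 10 orange genes changed their side of the threshold, 5 of them passing as higher with cyclic loess and 5 no longer passing as lower.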

How the data were processed

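Total RNA of 3 protease IV-treated and 3 mock samples was hybridized to Affymetrix Arabidopsis arrays. The deposited values are log2 expression values made by the authors with robust multi-array averaging (RMA) in affy 1.36.1, per the submitters' processing notes; its settings are not stated in the sources at hand. RMA quantile-normalizes arrays, so a change in total mRNA cannot be read, and it compresses dim signals. The number of arrays limits the precision.

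Of 22810 probe sets, 64 were controls, 13513 named 1 gene in the platform annotation held by GEO, some of which may be outdated, 503 named several and 8730 were unnamed. Symbols and synonyms came from RefSeq (TAIR10.1; 13484 of the single-gene sets matched). Per gene the probe set with the highest mean over the 6 arrays was used, leaving 13355 genes. Differences were fitted with limma 3.58.1 in R 4.3.3 (lmFit, eBayes, no covariates, two-sided), adjusted by Benjamini-Hochberg over all genes, and the fit was tested on simulated data. Figures were drawn with matplotlib 3.10.9. SEs and 95% intervals come from this fit and carry no adjustment for the number of genes.

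Values on every array are given for the 12 largest rises and 6 largest falls among members past the threshold, and for others described singly; from other lists, up to 4 called genes are named, and others where a count calls for it. Lists were matched by symbol and synonym, and 1 entry, whose symbol names a chitinase, was dropped from the flavonoid list. The members and lists were chosen with earlier results of these data known. Alternatives were a replicate block, leaving out single arrays, 3 scalings, 2 filters on low signal, 2 uses of probe sets and 2 variance models.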

Additional observations from a re-analysis of the deposited data

How the results depend on the processing

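All 13 rises and 13 of the 18 falls among the members passed, in the same direction, under every one of the 16 alternatives in which the gene was fitted. The other 5 falls, of BGLU16, BGLU44, UGT71C4, UGT76C2 and UGT84A3, were lost with cyclic loess, which also added 5 rises, of UGT73B1, UGT71B5, UGT71B8, UGT84A4 and UGT71C2. With cyclic loess 1 BGLU gene fell in place of 3, and 1514 of all genes fell in place of 3039; the cause was not tested. Leaving out 1 array gave 10 to 11 UGT rises, 13 to 15 UGT falls, 3 BGLU rises and 2 to 3 BGLU falls, and over all genes 1342 to 1491 rises and 2316 to 3214 falls. Of the 42 members that did not pass, 10 passed under at least 1 alternative. With the replicate number as a block, no member changed its side of the threshold, with 10 UGT rises and 15 UGT falls, and all genes gave 1441 rises and 2738 falls. Among listed genes JAL33 and GSTL3 did not pass with the block (adjusted p = 0.0700 and 0.0707), which left 5 of the 6 glutathione S-transferase falls. Whether samples with the same number share a plate or batch is not stated in the labels. Deviations from the group means correlated at 0.04, -0.10 and -0.18 between samples numbered 1, 2 and 3, and not every sample correlated best with its own number. Deviations from a mean of only 3 arrays are tied to each other, so these values cannot decide whether a batch was shared. Filtering on the mean took out members that were dim in both groups and also some that were not, so fewer genes were tested. With a mean of at least 5, UGT73D1, whose mean over all arrays was 4.58, was not tested, and 9 UGT rises were left. Members near background on these arrays remain limited by signal.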

Other observations

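Protease IV replicate 2 had the lowest of the 3 treated values in 8 of the 13 members that rose, among them UGT73B5, UGT71B6 and UGT73D1, and in 445 of all 602 genes that rose at least 2-fold. Among the 7 members that rose at least 2-fold it was the lowest in 4, and the SD over the treated arrays was larger than that over the mock arrays in 6 of these 7, with a median of 0.247 against 0.108. Over the 602 genes this held in 373, with a median SD of 0.142 against 0.111. BGLU27 had its highest treated value in replicate 3 and its lowest in replicate 1.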
